A study of Mus musculus with 6 samples.

Results

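Tdrkh, Rbm44 and Catsperg1, 3 genes best known from the germline, were lower in LSK cells with deleted Oga than in wildtype LSK cells. A set of 10 genes was built around them to ask whether their fall extended to other germline genes of the Tudor and Piwi families. The other 7 members were Tdrd3, Tdrd5, Tdrd7, Tdrd9, Piwil2, Piwil4 and Mael. Each member was taken by its symbol from a table of 53445 loci, and no symbol was listed more than once. Tdrkh, Rbm44 and Catsperg1 were chosen by their fold change between the genotypes in these same libraries, so their values are a description without a test. Of the other 7 members, 0 were lower in every OgaVav-Cre library than in every wildtype library, against 9.97% of all tested loci. Only 3 of these 7 had enough reads to be tested. Of these 3, 0 passed the test in either direction, against 0.0318% of all tested loci. With so few genes and such low shares, these counts alone do not show whether the fall extended.

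The data were poly(A) RNA-Seq libraries of LSK cells, the Lin-Sca+Kit+ fraction of bone marrow that holds the hematopoietic stem cells and multipotent progenitors. Donors were female C57BL/6 mice of about 12 weeks, 3 of the OgaVav-Cre genotype and 3 wildtype, and 1 library stood for 1 mouse. The OgaVav-Cre mice were bred from the floxed Oga fl/fl allele and the Vav-iCre transgene, whose Vav regulatory elements are active throughout the hematopoietic lineage. Whether the wildtype mice carried a floxed allele or the transgene was not given in the sources used here. Oga, the enzyme that removes O-GlcNAc from proteins, is listed as Mgea5. Its main locus had 104, 109 and 110 reads in the OgaVav-Cre libraries against 3164, 2970 and 2736 in wildtype. This left 3.09% of the level at that locus. A second locus listed as Mgea5 fell less, with 112, 123 and 127 reads for OgaVav-Cre against 481, 447 and 392 for wildtype (log2 fold change -2.105). Library totals ranged from 19318056 to 27064389 reads. All 9 LSK markers were present, with a summed level of 1140 to 2400 CPM (counts per 1000000 reads) in OgaVav-Cre and 1490 to 2620 CPM in wildtype. Of the 7 germ cell markers, Acrv1, Prm2 and Tnp1, which belong to maturing sperm cells, had no read in any library. Prm1, of the same kind, had a few reads in every library and was too low to be tested. Its level was 0.119 to 0.255 CPM in OgaVav-Cre and 0.0469 to 0.0846 CPM in wildtype, without overlap. Ddx4, Dazl and Sycp3 also had reads.

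In the germline, Piwi proteins bind piRNAs, short RNAs that guide the silencing of transposons. Arginines near the start of Piwi proteins are methylated, and Tudor domains bind these methylated arginines, which gathers Piwi proteins, helicases and scaffold proteins in granules next to mitochondria. Tdrkh, also called Tdrd2, has a Tudor domain and KH domains, is anchored to the mitochondrial surface and takes part in trimming piRNA precursors. Not every member is a piRNA gene. Rbm44 is an RNA-binding protein of the bridges between germ cells, Catsperg1 is a subunit of the CatSper calcium channel of the sperm tail, and Tdrd3 is a widely expressed Tudor protein that works with a topoisomerase. Most genes of this kind are silent or low in blood cells.

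Promoter sequence is shown for 4 members, Tdrkh and Catsperg1 as genes chosen for their fall, Tdrd3 as the member with the highest level and Mael as the member without reads. RefSeq windows on GRCm38.p6, running from 250 bases before to 50 bases after a transcript start, were matched for 8 of the 10 members. Each line holds the 250 upstream bases on the strand of the gene, 5′ to 3′. Capitals mark matches, on either strand, to CACGTG (the E-box of Myc and its relatives), TCCCGC (the core of the E2F motif), AACNGTT (the Myb motif), AANATGGC (the YY1 motif) or CCAAT (the NF-Y box, which reads ATTGG on the other strand), of which the last was added after the sequences had been seen.
Tdrkh, plus strand, chr3:94412994-94413243: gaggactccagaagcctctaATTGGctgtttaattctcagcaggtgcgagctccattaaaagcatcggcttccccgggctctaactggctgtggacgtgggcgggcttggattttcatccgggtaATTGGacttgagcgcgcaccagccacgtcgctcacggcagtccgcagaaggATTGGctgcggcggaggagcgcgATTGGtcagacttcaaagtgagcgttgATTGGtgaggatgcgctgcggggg
Catsperg1, minus strand, chr7:29214034-29214283: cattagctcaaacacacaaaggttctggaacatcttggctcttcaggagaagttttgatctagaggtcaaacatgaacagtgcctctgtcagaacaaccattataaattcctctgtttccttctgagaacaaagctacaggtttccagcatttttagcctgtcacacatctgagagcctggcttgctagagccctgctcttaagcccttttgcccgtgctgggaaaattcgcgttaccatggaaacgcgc
Tdrd3, plus strand, chr14:87416333-87416582: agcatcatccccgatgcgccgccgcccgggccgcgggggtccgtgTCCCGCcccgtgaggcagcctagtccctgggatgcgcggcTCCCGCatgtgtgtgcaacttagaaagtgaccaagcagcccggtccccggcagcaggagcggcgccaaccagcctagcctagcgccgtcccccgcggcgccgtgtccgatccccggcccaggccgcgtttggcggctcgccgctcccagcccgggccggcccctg
Mael, minus strand, chr1:166238745-166238994: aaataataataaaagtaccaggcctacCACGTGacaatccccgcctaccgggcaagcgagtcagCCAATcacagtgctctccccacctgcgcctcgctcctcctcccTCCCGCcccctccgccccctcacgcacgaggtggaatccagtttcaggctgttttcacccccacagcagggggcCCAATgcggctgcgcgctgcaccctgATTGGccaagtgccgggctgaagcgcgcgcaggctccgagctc

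The Tdrkh promoter held 5 CCAAT matches, at -230, -125, -74, -51 and -24 counted from the transcript start at 0, all of them as ATTGG. Of all 32851 windows, 0.271% held at least as many, while 37.4% held any. The Tdrkh window held 25 CG pairs, against a median of 7 over all windows, and 18.4% of windows held as many or more. The E-box, E2F, Myb and YY1 motifs did not occur in it. The printed Catsperg1 sequence held none of the motifs, and its window held the YY1 motif only downstream of the start, at 42, as 6.05% of windows did somewhere. Another Catsperg1 window, chr7:29210876-29211175, is not printed and held none of the motifs. Tdrd3 held the E2F motif at -205 and -165, a motif of 20.0% of windows, and 43 CG pairs. Mael held the E-box at -223, a motif of 7.15% of windows, with the E2F motif at -143 and 11 and the NF-Y box at -186, -69 and -43. No motif was common to Tdrkh and Catsperg1. These are matches of letters and do not show that a factor bound there.

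Tdrkh (gene ID 72634, chr3:94217218-94238590, plus strand, 14 exons, with mm9 as the build of this and all loci that follow) had the most reads of the chosen genes. It gave 67, 106 and 102 reads for OgaVav-Cre replicates 1 to 3 against 367, 325 and 367 for wildtype replicates 1 to 3. The level was 3.63 ± 0.617 CPM (SD, n = 3) for OgaVav-Cre against 16.5 ± 0.884 CPM (SD, n = 3) for wildtype, which left 22.0%. The highest OgaVav-Cre library, at 4.20 CPM, lay far below the lowest wildtype library, at 15.5 CPM. The log2 fold change was -2.18 (SE 0.201, 95% interval -2.65 to -1.72). Reads remained in every OgaVav-Cre library, so the gene was reduced and not lost. As in any bulk sample, fewer cells with the RNA and less RNA per cell cannot be told apart.

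Rbm44 (chr1:93041666-93067372, plus strand, 16 exons) went from a low level to no reads. No OgaVav-Cre library held a read of it (0 in each), while the wildtype libraries held 55, 51 and 49, a level of 2.43 ± 0.313 CPM (SD, n = 3). A count of 0 allows up to 3 reads per library, which was 0.110 to 0.133 CPM in these libraries. Set against the highest of these floors, the fall of Rbm44 was at least 18.3-fold, and the groups did not overlap. The bound and the floors cover counting error only. Rbm44 passed the filter on low counts through its wildtype libraries alone.

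Catsperg1 (chr7:29966340-29999054, minus strand, 24 exons) varied the most among the chosen genes. It gave 71, 31 and 40 reads for OgaVav-Cre against 99, 214 and 139 for wildtype. The level was 1.95 ± 1.05 CPM (SD, n = 3) against 7.21 ± 3.43 CPM (SD, n = 3), with a log2 fold change of -1.89 (SE 0.477), or a ratio with a 95% interval of 0.125 to 0.581. The groups did not overlap, but the gap was narrow, since the highest OgaVav-Cre library had 3.15 CPM and the lowest wildtype library 4.64 CPM. Of the 6007 distinct stretches of 50 bases, the read length, in its annotated transcripts, 24.7% also occurred in Catsperg2, so some reads may belong to either copy. Catsperg2, a near-identical subunit gene, gave 5, 0 and 4 reads for OgaVav-Cre against 6, 12 and 5 for wildtype, far fewer than Catsperg1. Only protein-coding transcripts were searched, and in them no other member with a transcript shared such a stretch with another gene. Tdrd5 had no transcript in the set used for this check.

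**Figure D1:**
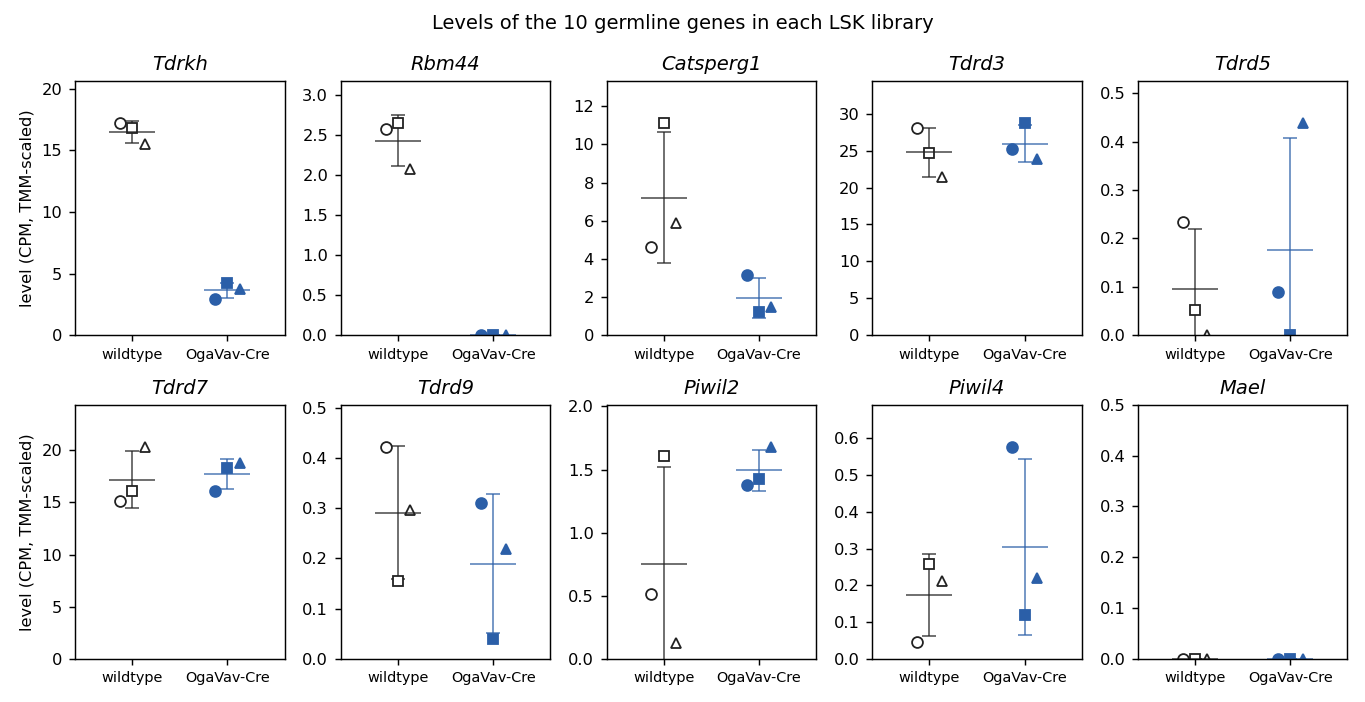
Levels of the 10 members in CPM (TMM-scaled, linear axes that start at 0 and differ between panels). Circles, squares and triangles are replicates 1, 2 and 3, open for wildtype and filled for OgaVav-Cre, with the mean and SD (n = 3), the SD cut off at 0. The filled points lie below all open points for Tdrkh, Rbm44 and Catsperg1 and mix with them for the others, and Mael is at 0 throughout.

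Among the other Tudor genes, Tdrd3 and Tdrd7 were well expressed and nearly equal between genotypes. Tdrd3 (chr14:87816390-87945315, plus strand) gave 568, 725 and 654 reads for OgaVav-Cre against 599, 476 and 508 for wildtype, or 25.9 ± 2.50 CPM against 24.8 ± 3.29 CPM (SD, n = 3 each). The libraries of the genotypes overlapped, and the log2 fold change was 0.07 (SE 0.156, 95% interval -0.30 to 0.43, adjusted p = 0.897, edgeR quasi-likelihood test). Tdrd7 (chr4:45977894-46047633, plus strand), a Tudor protein of germ granules that is also needed in the lens of the eye, gave 364, 462 and 516 reads for OgaVav-Cre against 324, 310 and 480 for wildtype. Its level was 17.8 ± 1.42 CPM against 17.2 ± 2.74 CPM (SD, n = 3 each), again with overlapping libraries. The log2 fold change of Tdrd7 was 0.05 (SE 0.169, 95% interval -0.35 to 0.44, adjusted p = 0.937, edgeR quasi-likelihood test). Both intervals lie wholly above -1, the cutoff for a locus called lower. The signs of these small changes turned when libraries were scaled by their totals alone, to -0.05 for Tdrd3 and -0.07 for Tdrd7, a scaling that moved the median of all tested loci from 0.00 to -0.11.

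Tdrd9 and Tdrd5 were near the limit of detection. Tdrd9 (chr12:113209770-113307065, plus strand), a helicase with a Tudor domain that silences transposons in the male germline, gave 7, 1 and 6 reads for OgaVav-Cre against 9, 3 and 7 for wildtype. Tdrd5 (chr1:158185426-158233479, minus strand), a Tudor protein of the germ cell granules, gave 2, 0 and 12 reads for OgaVav-Cre against 5, 1 and 0 for wildtype. The genotypes overlapped for both. Neither gene passed the filter on low counts, and a difference was not detectable at this depth.

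Of the Piwi genes, Piwil2 had the higher level and Piwil4 was nearly absent. Piwil2 (chr14:70772287-70828901, minus strand), known as Mili, binds piRNAs made before meiosis and during it. It gave 31, 36 and 46 reads for OgaVav-Cre against 11, 31 and 3 for wildtype. The OgaVav-Cre libraries were close together at 1.49 ± 0.163 CPM (SD, n = 3), while the wildtype libraries ranged from 0.127 to 1.61 CPM around a mean of 0.750 ± 0.768 CPM (SD, n = 3). The log2 fold change was 1.01 (SE 0.738, 95% interval -0.70 to 2.72) and did not pass the test (adjusted p = 0.629, edgeR quasi-likelihood test). Leaving out wildtype replicate 2 moved this value to 2.23, and leaving out wildtype replicate 3 moved it to 0.50. Piwil4 (chr9:14500674-14545177, minus strand), known as Miwi2, directs DNA methylation of transposons in the fetal male germline and gave 13, 3 and 6 reads for OgaVav-Cre against 1, 5 and 5 for wildtype. Piwil4 did not pass the filter, its genotypes overlapped, and 1339 bases of its annotated exons lie opposite the locus Gm10706, which had 7 reads in OgaVav-Cre replicate 1 and none elsewhere.

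Mael (chr1:168131503-168168875, minus strand), or Maelstrom, a piRNA factor with an HMG box, had 0 reads in all 6 libraries. A count of 0 allows a level of up to 0.110 to 0.156 CPM in these libraries.

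By the rule for a called locus, an adjusted p under 0.05 and a log2 fold change below -1 or above 1, 0 of the 3 other members that could be tested were called in edgeR, against 0.0272% of all 22032 tested loci called lower, 0.00454% called higher and 0.0318% in either direction. None of these 3 had an unadjusted p under 0.05, and DESeq2 called 0 of the other members, against 0.343% of loci called lower and 0.15% called higher. Of all tested loci, 10.6% had an unadjusted p under 0.05. All OgaVav-Cre libraries lay below all wildtype libraries for the 3 chosen genes, whose choice fixed this, and for 0 of the other 7 members, while this held for 9.97% of tested loci and the opposite for 7.5%. Tdrd5, Tdrd9, Piwil4 and Mael had too few reads for this test.

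**Figure D2:**
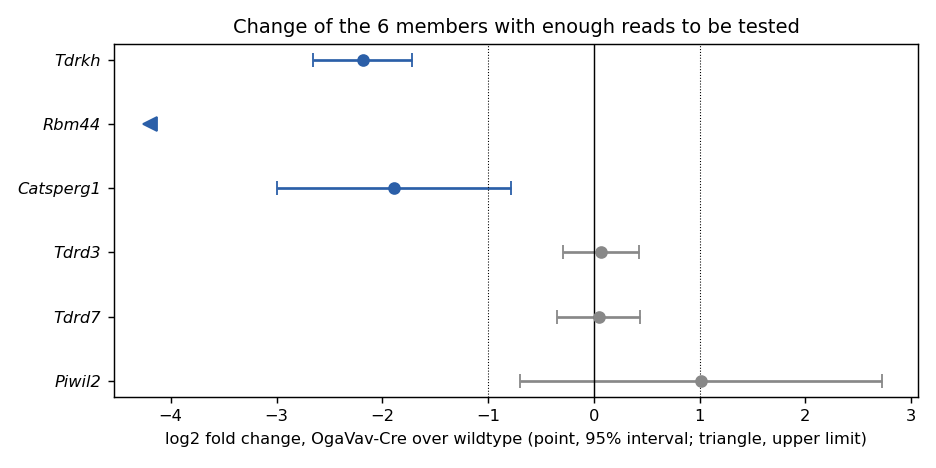
Log2 fold change of OgaVav-Cre over wildtype for the 6 members that passed the filter on low counts, with 95% intervals. The triangle is the upper limit for Rbm44, at -4.19, set by the floor of 3 reads, and dotted lines mark -1 and 1. The bars of Tdrkh and Catsperg1, which were chosen for their fall, show the error of the estimate and are no test, while the intervals of Tdrd3, Tdrd7 and Piwil2 include 0.

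Levels per length, as RPKM (reads per kilobase of the locus, scaled to the library), placed the members in a wide order over all 6 libraries. Tdrd3 was at 3.52 ± 0.383 RPKM (SD, n = 6) and Tdrd7 at 2.66 ± 0.375 RPKM (SD, n = 6), and their ranges overlapped at 3.13 to 4.01 and 2.25 to 3.23 RPKM. Tdrkh followed with 2.38 ± 0.101 RPKM (SD, n = 3) in wildtype, where its libraries overlapped those of Tdrd7 at 2.67 ± 0.480 RPKM (SD, n = 3). In OgaVav-Cre the Tdrkh level was 0.503 ± 0.106 RPKM (SD, n = 3) and the Tdrd7 level 2.64 ± 0.345 RPKM (SD, n = 3), with no overlap. Catsperg1 came next at 0.797 ± 0.358 RPKM (SD, n = 3) in wildtype and 0.203 ± 0.0975 RPKM (SD, n = 3) in OgaVav-Cre. Piwil2 and Rbm44 had means of 0.195 and 0.168 RPKM over the 6 libraries, and Tdrd9, Piwil4 and Tdrd5 had means of 0.0422, 0.0375 and 0.0179 RPKM with overlapping ranges. Rbm44 stood at rank 5 in wildtype and rank 9 in OgaVav-Cre, and Piwil2 at rank 6 and rank 4. By the mean over all 6 libraries, Tdrd3 lay near the middle of the tested loci, with 49.8% of them at a lower RPKM. The Tdrkh mean over all 6 libraries, 1.44 RPKM, lay above 31.8%, but it falls between the levels of the genotypes and describes neither.

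The pattern over the 6 libraries that was most like that of Tdrkh, by the root mean square difference of centred log2 CPM, was that of a second locus listed as Mgea5 (0.199), with 112, 123 and 127 reads for OgaVav-Cre against 481, 447 and 392 for wildtype. Ttc12 (0.237) and AK145311 (0.276) followed. For Rbm44 the nearest were the main Mgea5 locus (0.0833), D19Ertd409e (0.139) and G530011O06Rik (0.424). D19Ertd409e had 104, 113 and 101 reads for OgaVav-Cre against 3296, 3085 and 2806 for wildtype, close to the main Mgea5 locus in every library. Whether these loci share reads was not tested. G530011O06Rik had 1, 0 and 0 reads against 92, 36 and 43. For Catsperg1 the nearest were Mtap1b (0.206), Gm10286 (0.253) and Armc2 (0.272), which share with it the highest level in wildtype replicate 2. The log2 CPM include a prior count of 2, which sets the OgaVav-Cre values of Rbm44, as it had 0 reads there. Fitted log2 fold changes were -8.82 for Rbm44 and -5.01 for the main Mgea5 locus, so 0.0833 does not show equal falls. The genes were chosen for their fall, so lower loci lie near them by that choice. A link between any of these loci was not tested.

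No tested locus near the chosen genes passed the test. Within 50 kb of Tdrkh, 4 of 12 listed loci were tested, and their log2 fold changes ran from -0.60 to 0.56, the lowest being 1700040D17Rik with 20, 3 and 10 reads for OgaVav-Cre against 12, 15 and 17 for wildtype. Mrpl9, a mitochondrial ribosomal protein gene whose start is 30.0 kb downstream, had 723, 755 and 760 reads against 606, 465 and 609. Around Rbm44, 3 of 5 loci were tested and ran from 0.07 to 0.24, among them Ramp1 at 0.18 (SE 0.187) and Lrrfip1 at 0.07 (SE 0.120). Around Catsperg1, 11 of 13 loci were tested and ran from -0.08 to 1.33. The upper end was Ggn, a gene of the germ cells, with 27, 72 and 39 reads for OgaVav-Cre against 11, 6 and 31 for wildtype (log2 fold change 1.33, SE 0.609, adjusted p = 0.490, edgeR quasi-likelihood test). None of the tested neighbours had an adjusted p under 0.05. The lowest adjusted p was 0.591 near Tdrkh, 0.735 near Rbm44 and 0.490 near Catsperg1.

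**Figure D3:**
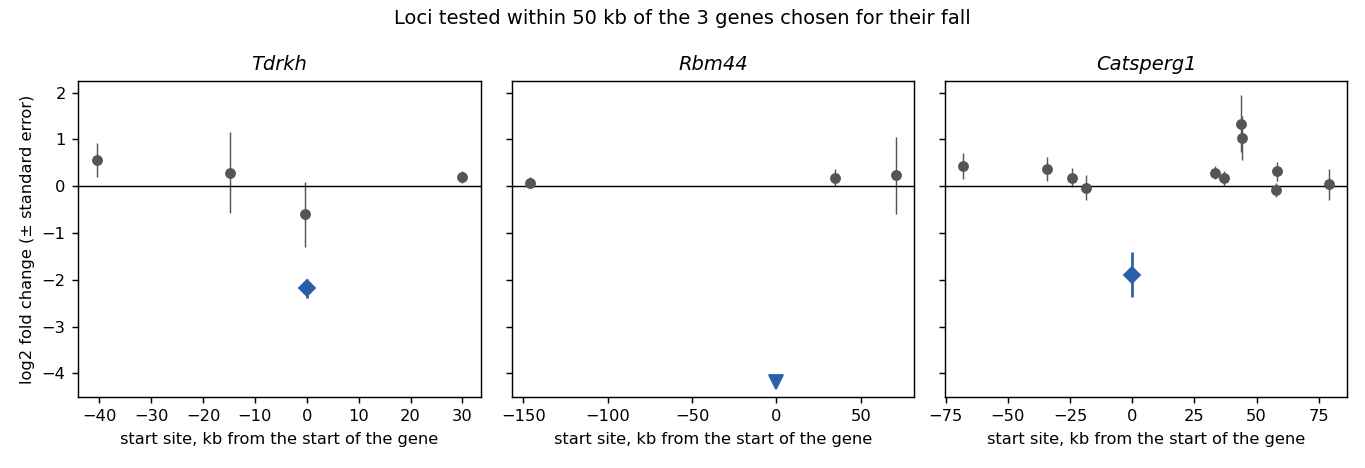
Log2 fold change (± SE) of tested loci whose span came within 50 kb of the span of Tdrkh, Rbm44 and Catsperg1, against the distance in kb from the start of that gene to the start of the locus along the direction of transcription. The diamond or triangle at 0 is the gene itself, the triangle being the upper limit for Rbm44. Grey points lie between -0.60 and 1.33, above the gene in each panel.

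Loci that overlap a member bear on its reads. AK031051 lies within Tdrkh on the same strand (chr3:94217323-94222208), outside its exons in the GENCODE annotation. It gave 4, 4 and 1 reads for OgaVav-Cre against 36, 27 and 9 for wildtype. It did not pass the filter. All its OgaVav-Cre libraries lay below all wildtype libraries, as held for 9.97% of tested loci. Since AK031051 lies within a gene chosen for its fall, its values are no separate support for that fall. Oaz3, an antizyme of the testis, overlaps the other end of Tdrkh on the opposite strand and had 2, 4 and 5 reads against 12, 15 and 3. Whether counting used strand was not given in the sources used here. Reads of Oaz3 and Tdrkh can thus not be told apart in the shared stretch. This stretch lies outside the GENCODE exons of Tdrkh, but the counted Tdrkh locus ends within Oaz3. Its reads may therefore be part of the Tdrkh count. Rbm44, Tdrd7, Piwil2 and Mael overlap no listed locus. The loci that overlap Catsperg1, Tdrd3, Tdrd5 and Tdrd9 had at most 7 reads in any library.

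Other genes of these families were taken from 6 lists, written with earlier results of these data known. Of 69 genes, 66 were in the table, 14 had no read, 22 had at most 3 reads in every library (those 14 included), and 30 were tested. The number called was 0 lower and 0 higher in edgeR, and it was 0 in DESeq2. An unadjusted p under 0.05 was reached by 2 lower genes, Catsper2 and Stag3, and 1 higher gene, Ddx4, against 10.6% of all tested loci. All OgaVav-Cre libraries lay below all wildtype libraries for 7 of the 30 genes, Rnf17, Akap1, Ago3, Catsper2, Efcab9, Nanos3 and Stag3, and above for 0, against 9.97 and 7.5% of all tested loci.

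Of the other Tudor genes, 5 of 10 were tested, with a median log2 fold change of 0.12 against 0.00 for all tested loci. Akap1, a mitochondrial anchor that carries a Tudor and a KH domain like Tdrkh, was at 27.2 ± 4.61 CPM in OgaVav-Cre and 32.0 ± 0.548 CPM in wildtype (SD, n = 3 each), a log2 fold change of -0.24 (SE 0.157). Rnf17, a Tudor protein of the testis, was at -0.65 (SE 0.369), and Snd1, a Tudor and nuclease protein found in most cells, was at 0.40 (SE 0.194). The adjusted p-values of these genes were 0.599, 0.553 and 0.507 in edgeR. Stk31 and Tdrd6 had no reads.

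Of the other Piwi and Argonaute genes, Piwil1 had no reads and the 4 Argonautes, which carry microRNAs in most cells, were all tested. Their median log2 fold change was -0.15. Ago3 was at 26.9 ± 5.83 CPM in OgaVav-Cre and 35.8 ± 1.32 CPM in wildtype (SD, n = 3 each), a log2 fold change of -0.41 (SE 0.178, adjusted p = 0.471, edgeR). Ago2 was at -0.19 (SE 0.165) and Ago4 at 0.15 (SE 0.167).

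Of the other piRNA factors, 7 of 18 were tested, with a median log2 fold change of 0.04. Ddx4, the mouse Vasa helicase and a defining germ cell gene, was plainly read in these libraries. It gave 417, 521 and 309 reads for OgaVav-Cre against 159, 256 and 200 for wildtype, and which cells they came from was not tested. Its level was 16.8 ± 4.90 CPM against 9.73 ± 3.12 CPM (SD, n = 3 each), a log2 fold change of 0.79 (SE 0.302, adjusted p = 0.445, edgeR), and the libraries overlapped. Mybl1, a transcription factor that switches on piRNA genes in meiosis, was at -0.59 (SE 0.277). Prmt5, which methylates the arginines that Tudor domains bind, was at 0.16 (SE 0.163). Mov10l1, Asz1, Gtsf1 and Gtsf1l had no reads.

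Of the CatSper subunits other than Catsperg1, 3 of 10 were tested, with a median log2 fold change of -0.52. Catsper2, a pore subunit, gave 42, 23 and 54 reads for OgaVav-Cre against 49, 52 and 104 for wildtype, or 1.58 ± 0.583 CPM against 3.13 ± 1.12 CPM (SD, n = 3 each). Its log2 fold change was -0.99 (SE 0.416, adjusted p = 0.467, edgeR) and its libraries did not overlap. Efcab9, a calcium sensor of the channel, was at -0.52 (SE 0.346) and Catspere1, listed as Gm7068, at -0.20 (SE 0.385). The pore subunits Catsper1 and Catsper4 had no reads.

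Of the genes of germ cell bridges and germ cell RNA binding, the company of Rbm44, 7 of 11 were tested, with a median log2 fold change of -0.01. The RNA-binding proteins Nanos3, Boll and Dazl were at -0.76 (SE 0.579), -0.62 (SE 0.565) and 0.41 (SE 1.07), each with at most 22 reads in any library. Of the meiosis genes, 4 of 15 were tested, with a median log2 fold change of 0.08. Stag3, a meiotic cohesin subunit, gave 68, 67 and 112 reads for OgaVav-Cre against 153, 113 and 116 for wildtype, without overlap once scaled. Its log2 fold change was -0.88 (SE 0.276, adjusted p = 0.412, edgeR). Spo11, which makes the breaks that start meiotic recombination, was at -0.20 (SE 0.328) and Dmc1, a recombinase, at 0.41 (SE 0.673).

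**Figure D4:**
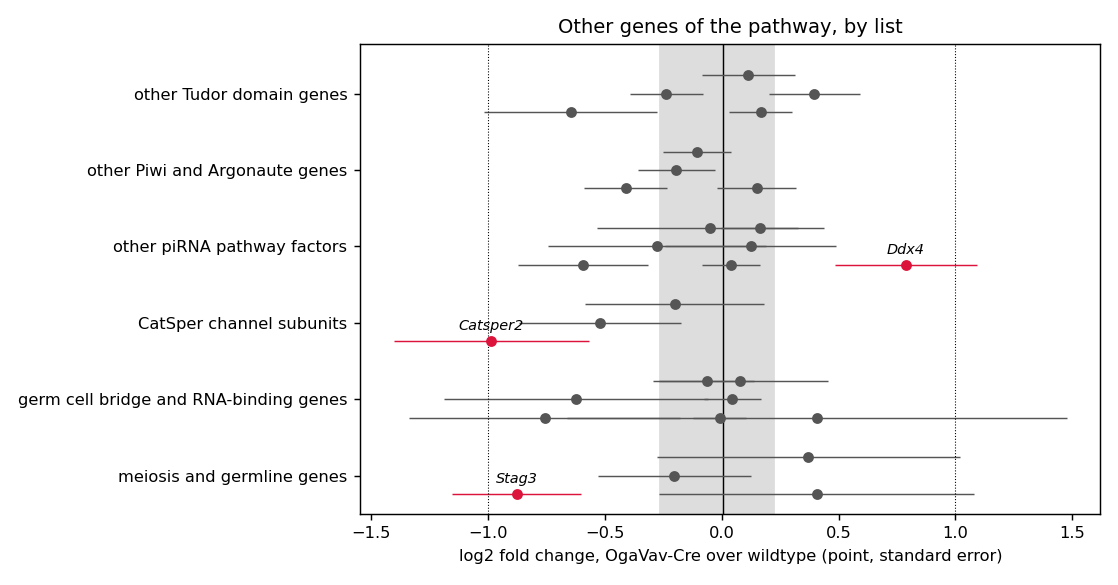
Log2 fold change (± SE) of the 30 tested genes of the 6 lists. The black line is the median of all 22032 tested loci and the grey band their middle range from -0.26 to 0.22, dotted lines mark -1 and 1, and red marks an unadjusted p under 0.05. No point lies beyond -1 or 1.

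Markers of other cells varied between libraries. The summed germ cell markers were 13.6 to 22.6 CPM in OgaVav-Cre and 8.11 to 15.0 CPM in wildtype, most of it Ddx4. The summed B cell markers were 122 to 625 CPM and 91.7 to 436 CPM, T cell markers 16.7 to 118 CPM and 16.4 to 27.2 CPM, myeloid markers 52.9 to 106 CPM and 73.1 to 122 CPM, erythroid markers 65.9 to 699 CPM and 119 to 191 CPM, and plasma cell markers 1230 to 10100 CPM and 1400 to 7090 CPM. None of these markers had an adjusted p under 0.05. Immunoglobulin genes Ighm, Igkc and Igj took 9.88, 4.14 and 1.17% of all OgaVav-Cre reads against 2.05, 5.48 and 1.36% for wildtype. Within each genotype, the library with the highest immunoglobulin share also had the highest level of Catsperg1, 3.15 CPM in OgaVav-Cre replicate 1 and 11.1 CPM in wildtype replicate 2. The highest levels of Tdrkh were in other libraries, 4.20 CPM in OgaVav-Cre replicate 2 and 17.2 CPM in wildtype replicate 1. Below the top library, the order of Catsperg1 and that of the share differed in each genotype. OgaVav-Cre replicate 2 (share 4.14%) had 1.23 CPM of it, less than replicate 3 (share 1.17%) with 1.46 CPM. Wildtype replicate 1 (share 2.05%) had 4.64 CPM, less than replicate 3 (share 1.36%) with 5.88 CPM. OgaVav-Cre replicate 1 had the largest share of all, 9.88%. Its Catsperg1 level of 3.15 CPM was below every wildtype library, but the choice of Catsperg1 for its fall fixed this. The part of other cells in the values of the members was not tested.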

How the data were processed

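Single-end reads of 50 bp were aligned to mm9 and summarized per locus by the authors with Genomatix, and the submitters' processing notes name CASAVA 1.8.2. The aligner, the annotation and the use of strand in counting were not given in the sources used here. The authors deposited counts, raw reads per locus and library, and RPKM, which they made from those counts, the locus length and the library size. The 6 per-sample columns of normalized expression were not used, and neither were the authors' own fold changes and p-values.

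The quasi-likelihood test of edgeR 4.0.16 in R 4.3.3 (TMM, filterByExpr by genotype, other settings at defaults) was run on all loci that passed the filter, with Benjamini-Hochberg adjustment over them. Intervals of fold changes cover 95%. CPM are TMM-scaled. Replicates were separate mice, so p-values measure the spread between mice. Alternatives were RLE, library totals alone, no filter, DESeq2 1.42.0 (the test of the methods), voom in limma 3.58.1, the replicate number as a block, and each library left out in turn. The fits were tested on simulated data with 200 changed loci. Python 3.11.15 with pandas 2.3.3 and matplotlib 3.10.9 was used for tables and plots.

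The members and lists were chosen with earlier results of these data known. Genes named were the members, the 3 of smallest p in each list, called genes of the lists, loci that overlap a member or lie within 50 kb of a chosen gene, the 3 nearest patterns, Oga and the markers. Other list genes were named after their values were seen. Coordinates of loci are mm9 and those of promoters GRCm38.p6, with no conversion. Shared 50-base stretches were read from the protein-coding transcripts of the GENCODE annotation of mm9, and exons from that annotation.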

Additional observations from a re-analysis of the deposited data

How the results depend on the processing

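The 3 tested members outside the chosen genes were called in none of the alternatives, and neither was any gene of the 6 lists. Over all tested loci, 6 were called lower and 1 higher, against 17 and 4 without the filter on low counts, 80 and 35 with DESeq2, 5 and 0 with limma-voom, 0 higher with library totals alone, and 3 to 6 lower and 0 to 3 higher when 1 library was left out. The 3 chosen genes were picked on this comparison, and Rbm44 passed the filter through wildtype alone, so how many of them meet the rule for a call only describes the settings and is no evidence for their fall. That number was 1, against 2 without the filter, 3 with DESeq2, 2 with limma-voom, and 0 to 0 when any 1 of the 6 libraries was left out, where the log2 fold change of Tdrkh ran from -2.30 to -2.06. Log2 fold changes of Tdrd3 and Tdrd7 turned sign with library totals alone, to -0.0501 and -0.0739, and ranged from -0.0273 to 0.169 and from -0.0337 to 0.182 when 1 library was left out. The medians of the lists of piRNA factors and meiosis genes turned to -0.08 and -0.03 with library totals alone, and that of the bridge and RNA-binding list to 0.01 with RLE or DESeq2. When 1 library was left out, the medians ran from -0.24 to 0.25 for meiosis genes, from -0.17 to 0.12 for piRNA factors, from -0.02 to 0.23 for other Tudor genes and from -0.14 to 0.01 for the bridge and RNA-binding list, so none of these 4 has a stable sign, while they stayed below 0 for the Argonautes (-0.22 to -0.09) and the CatSper subunits (-0.65 to -0.37). The cause of these differences was not tested. With the replicate number as a block, 4 loci were called lower and 2 higher, 0 of the chosen genes met the rule, and the log2 fold change of Tdrkh was -2.20. Deviations of same-numbered libraries correlated at r = -0.08, 0.26 and 0.32 over loci, and those of differently numbered libraries at -0.38 to 0.21. These values do not settle whether the numbers pair the mice, and the main fit did not use them as pairs. The order of the members per length was the same with TMM-scaled CPM per kilobase. Depth limits Tdrd5, Tdrd9, Piwil4 and Mael, which could not be tested.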
